A study of Mus musculus with 12 samples.

Results

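The genes described here are 43 members of the machinery that copies the genome and divides the cell, 22 of DNA replication and 21 of mitosis. They were taken by gene symbol from the 55335 genes of the count table. Each symbol matched 1 row, and all 43 passed the filter on low counts that kept 16468 genes for testing. The study sequenced polyadenylated RNA of mouse embryonic stem (ES) cells on 4 days, numbered 0, 2, 4 and 6, from 3 libraries each day (12 in all). The labels give a single cell line, without strain, sex or allele. For all 4 days they give the same growth conditions: KnockOut Serum Replacement medium with the self-renewal cytokine LIF, gelatin-coated plates and irradiated mouse embryonic fibroblasts (MEFs). They name no treatment from day 0 on, so the days are compared as days only.

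A cell prepares to replicate by loading the ring-shaped MCM helicase on origins with the help of Cdc6 and Cdt1, and starts by joining Cdc45 and the GINS complex to it. Polymerases, the sliding clamp and a supply of deoxynucleotides then carry DNA synthesis through S phase. Entry into mitosis follows when Cdk1 is activated by A- and B-type cyclins, and exit follows when the anaphase-promoting complex marks those cyclins for destruction. Mouse ES cells are known for fast cycles with a short G1 phase. Many replication genes are known targets of E2F transcription factors, and many mitosis genes carry an element called CHR in their promoters, which is read by complexes built on the MuvB core.

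Most of the 43 transcripts were less abundant at days 2, 4 and 6 than at day 0. At day 6, 19 of 22 replication genes and 20 of 21 mitosis genes were lower than at day 0, where 37.5% of all tested genes were lower. The median change was -0.52 on the log2 scale for the replication genes and -0.53 for the mitosis genes, beside 0.02 for all tested genes. Rrm2, which encodes the regulated subunit of ribonucleotide reductase, fell 2.89-fold, and Cenpf, which encodes a kinetochore protein, fell 2.20-fold. Tk1, Fen1, Rrm1 and Ccna2 were called lower than day 0 at none of the 3 later days. Levels are counts per 1e6 counts of the TMM-scaled library (CPM), and changes are fitted log2 values ± SE. A gene counted as changed at an adjusted p under 0.05, by the quasi-likelihood test of edgeR, adjusted over the 16468 genes by the Benjamini-Hochberg method. In RNA from a whole culture, fewer cells in a phase of the cycle and less RNA per cell cannot be told apart.

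Total counts were 6.95 to 13.3 times 1e6 per library. The labels do not say whether the libraries of a day were separate cultures, so the p-values take in only the spread among these libraries, and that spread may be technical. All 12 embryonic stem cell markers examined were lower at day 6, and their summed level was 894 to 935 CPM at day 6, against 5970 to 6010 CPM at day 0. All 12 were detected on every day, so the labelled cell type was met by its markers at day 0. Other cell types' markers moved with the days too. The summed level of 8 extraembryonic endoderm markers was 5920 to 6000 CPM at day 6, against 664 to 669 CPM at day 0, with 8 of 8 higher. For 12 fibroblast markers it was 399 to 416 CPM at day 6, against 53.7 to 59.6 CPM at day 0. Of the 10 fibroblast markers tested, 7 were higher and 3 lower. Lum was at 0 at day 0, Dcn at day 2 and S100a4 at day 6. For 6 neural markers the sums were 116 to 130 CPM against 82.2 to 89.4 CPM, with 4 higher and 2 lower, and Dcx was at 0 at day 0. For 6 mesoderm markers they were 323 to 338 CPM at day 6, against 43.5 to 49.9 CPM at day 0, with 5 higher and 1 lower. The part of these shifts in the results on replication and mitosis genes was not tested.

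The promoter windows of the 3 genes of each group with the smallest F-test p over the 4 days are shown, so that the letters searched for can be seen in place, whether or not a window held a match. Each window runs from 250 bases before to 50 bases after the gene's start, 300 bases in all, and comes from RefSeq on GRCm38.p6. Sequences run 5′ to 3′ on the gene's own strand. Capitals mark the letters searched for E2F (TTTCCCGC, or TTTCGCGC, or TTTGCCGC, or TTTGGCGC) and for the CHR (TTTGAA), on either strand. For replication, the windows of Rrm2 (chr12:24708004-24708303, plus strand), Pola1 (chrX:93632106-93632405, minus strand) and Mcm2 (chr6:88898731-88899030, minus strand) follow. Mcm6 (chr1:128359656-128359955, minus strand) was added after its matches were seen.
Rrm2: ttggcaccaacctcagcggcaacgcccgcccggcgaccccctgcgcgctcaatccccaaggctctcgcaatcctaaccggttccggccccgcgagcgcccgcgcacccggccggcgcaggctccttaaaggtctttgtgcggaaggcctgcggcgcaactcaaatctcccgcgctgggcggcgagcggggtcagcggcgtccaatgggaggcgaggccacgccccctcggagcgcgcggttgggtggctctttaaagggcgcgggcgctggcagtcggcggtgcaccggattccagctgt
Pola1: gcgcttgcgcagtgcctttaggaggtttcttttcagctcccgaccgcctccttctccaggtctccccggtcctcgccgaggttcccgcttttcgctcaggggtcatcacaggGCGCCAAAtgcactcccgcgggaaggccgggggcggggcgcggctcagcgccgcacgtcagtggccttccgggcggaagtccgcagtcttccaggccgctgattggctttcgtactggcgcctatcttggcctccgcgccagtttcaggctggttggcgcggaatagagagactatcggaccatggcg
Mcm2: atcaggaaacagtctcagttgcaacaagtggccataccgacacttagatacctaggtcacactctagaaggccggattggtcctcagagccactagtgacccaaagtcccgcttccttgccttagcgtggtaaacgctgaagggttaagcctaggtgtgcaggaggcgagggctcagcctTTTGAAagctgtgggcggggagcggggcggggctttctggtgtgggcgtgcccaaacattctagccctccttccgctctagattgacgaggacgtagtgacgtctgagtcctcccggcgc
Mcm6: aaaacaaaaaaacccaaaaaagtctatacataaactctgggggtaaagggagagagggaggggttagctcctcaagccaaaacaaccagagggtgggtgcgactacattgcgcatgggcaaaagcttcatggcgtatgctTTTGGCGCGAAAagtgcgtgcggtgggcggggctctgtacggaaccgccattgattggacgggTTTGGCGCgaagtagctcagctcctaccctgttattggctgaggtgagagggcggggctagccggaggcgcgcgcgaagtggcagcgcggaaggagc

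The Pola1 window held 1 E2F match, at 138 bases before the start on the opposite strand. The Mcm6 window held 3, at 110, 106 and 47 bases before the start, and the first 2 overlapped. Mcm2 held a CHR match 70 bases before the start, and the Rrm2 window held neither motif as spelled here. For mitosis, the windows are those of Cenpf (chr1:189688037-189688336, minus strand), Ccnb2 (chr9:70421505-70421804, minus strand) and Mki67 (chr7:135716330-135716629, minus strand). Cdk1 (chr10:69352863-69353162, minus strand) was added after its matches were seen, because it held both motifs.
Cenpf: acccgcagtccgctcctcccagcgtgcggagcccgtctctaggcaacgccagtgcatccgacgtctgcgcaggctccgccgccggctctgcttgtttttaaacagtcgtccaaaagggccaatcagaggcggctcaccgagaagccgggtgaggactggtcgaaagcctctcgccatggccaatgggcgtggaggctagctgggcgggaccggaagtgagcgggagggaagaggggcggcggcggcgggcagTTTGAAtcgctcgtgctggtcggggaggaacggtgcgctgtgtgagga
Ccnb2: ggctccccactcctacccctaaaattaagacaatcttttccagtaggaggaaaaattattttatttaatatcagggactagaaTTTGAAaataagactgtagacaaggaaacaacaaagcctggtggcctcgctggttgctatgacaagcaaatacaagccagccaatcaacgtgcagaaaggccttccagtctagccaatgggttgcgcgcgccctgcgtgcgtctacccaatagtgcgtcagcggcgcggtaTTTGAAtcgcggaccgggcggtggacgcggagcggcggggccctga
Mki67: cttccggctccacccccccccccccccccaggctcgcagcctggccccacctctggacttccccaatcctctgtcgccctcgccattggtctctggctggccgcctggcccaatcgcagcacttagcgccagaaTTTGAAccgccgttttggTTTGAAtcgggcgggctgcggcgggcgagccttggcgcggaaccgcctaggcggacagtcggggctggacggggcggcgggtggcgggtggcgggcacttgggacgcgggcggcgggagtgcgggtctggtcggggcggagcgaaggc
Cdk1: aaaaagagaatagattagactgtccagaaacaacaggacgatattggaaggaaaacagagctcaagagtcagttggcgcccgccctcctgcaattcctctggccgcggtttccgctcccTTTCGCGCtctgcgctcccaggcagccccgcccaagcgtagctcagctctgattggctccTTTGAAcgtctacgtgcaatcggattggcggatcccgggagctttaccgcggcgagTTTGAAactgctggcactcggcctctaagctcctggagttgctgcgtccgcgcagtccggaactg

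Matches for the CHR lay 3 bases after the start in Cenpf, 167 bases before and 5 bases after it in Ccnb2, and 116 and 98 bases before it in Mki67. In Cdk1 they lay 71 and 15 bases before the start, beside an E2F match 131 bases before it. Windows were found for 36 of the 43 genes, 19 of replication and 17 of mitosis, and not for Tpx2, Gins2, Aurkb, Ccna2, Mcm4, Kif20a and Gins1. An E2F match was present for 8 of the 19 replication genes (42.1%) and for 1 of the 17 mitosis genes (5.88%), beside 4.60% of the 11405 tested genes with a window. A CHR match was present for 12 of the 17 mitosis genes (70.6%) and for 3 of the 19 replication genes (15.8%), beside 14.2% of those tested genes. The 5 letters CCAAT, to which NF-Y binds, were present for 15 of the 17 mitosis genes (88.2%) and 12 of the 19 replication genes (63.2%), beside 43.5%. Over all 27025 gene symbols with a window, the shares were 2.60%, 20.2% and 41.1% for E2F, CHR and CCAAT. Genes with several windows (Mcm7, Lig1 and Fen1 among the members) counted once if any window matched. These matches describe the letters in a window and were not tested for binding or for any link with the changes over days.

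**Figure D1:**
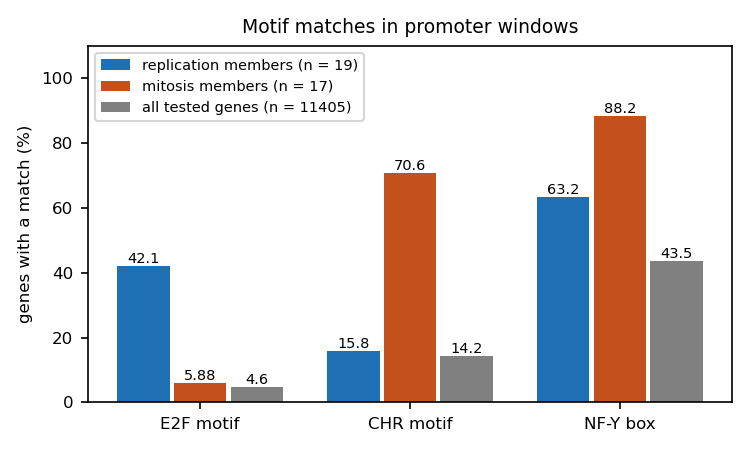
Percent of genes with at least 1 match to each motif (E2F, CHR, and the NF-Y box CCAAT) in a 300-base promoter window, for replication genes (n = 19), mitosis genes (n = 17) and all tested genes with a window (n = 11405). E2F matches are most frequent in replication genes (42.1%) and CHR matches in mitosis genes (70.6%).

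By day 2 most genes of both groups had fallen. Of the 22 replication genes, 16 (72.7%) were lower at day 2 than at day 0 and 4 (18.2%) were higher, where 33.2% of tested genes were lower and 34.9% higher. The median change was -0.34, beside 0.02 for all tested genes. Among the 21 mitosis genes, 15 (71.4%) were lower and 3 (14.3%) higher, with a median of -0.24. With scaling by library size alone the median of all tested genes moved up by 0.132, and the share of higher genes among all changed genes was 61.5% in place of 51.2%. The medians of the 2 groups were then -0.21 for replication and -0.11 for mitosis. The count of higher mitosis genes was 5 in place of 3, and that of lower ones 11 in place of 15. The higher mitosis genes also numbered 5 without the filter on low counts, without day 0 replicate 1 or without day 2 replicate 3, with Cdk1 and Plk1 added. Libraries of the 2 days did not overlap for 16 lower and 4 higher replication genes, and for 15 lower and 4 higher mitosis genes, beside 34.4% and 36.3% of tested genes.

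Among the genes that license and activate origins, Cdt1, the loader of the MCM helicase, had the largest fall at day 2. It was at 104, 105 and 95.7 CPM in replicates 1, 2 and 3 of day 0, and at 49.6, 43.6 and 54.9 CPM at day 2. At day 4 it was at 58.3, 54.5 and 52.5 CPM, and at day 6 at 59.0, 58.0 and 61.3 CPM. All 9 later libraries lay below all 3 of day 0. The fall at day 2 was 2.06-fold (log2 -1.04 ± 0.06, adjusted p = 1.26e-17), and at day 6 it was 1.71-fold (-0.77 ± 0.06, adjusted p = 3.91e-14). Day 4 was called higher than day 2 for Cdt1 by 0.17 ± 0.07 (adjusted p = 0.0361), although the libraries overlapped. That call was lost with library-size scaling, with DESeq2, and without day 2 replicate 1, day 2 replicate 2, day 4 replicate 1 or day 4 replicate 2.

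Mcm10, a replisome protein that helps the helicase to start, was at 116, 114 and 115 CPM at day 0 and at 75.2, 79.8 and 73.6 CPM at day 2. It was at 60.2, 62.0 and 71.1 CPM at day 4 and at 63.1, 59.0 and 68.8 CPM at day 6. Day 0 stood above every later library, day 2 stood above both later days, and days 4 and 6 overlapped. The change was -0.85 ± 0.06 at day 6 against day 0 (adjusted p = 2.18e-16). Gins2, a GINS subunit, was at 158, 154 and 151 CPM at day 0, at 113, 114 and 114 CPM at day 2, at 124, 127 and 125 CPM at day 4 and at 114, 112 and 115 CPM at day 6. Its day 4 libraries thus lay above those of days 2 and 6 and below those of day 0, and it was higher at day 4 than at day 2 by 0.14 ± 0.04 (adjusted p = 0.00763). In the annotation 67.3% of its exon bases overlap exons of Gse1 on the other strand. Strandedness of the counting is not given in the sources used here, so reads of both cannot be told apart. Gins1, another GINS subunit, fell by 0.97 ± 0.10 on the log2 scale at day 6 (adjusted p = 2.87e-11). Cdc45, the partner of GINS in the active helicase, changed least of the 6, by -0.21 ± 0.06 at day 6 (adjusted p = 0.000922), a call lost with library-size scaling. Cdc6, which loads MCM rings, was not called at day 2 (-0.11 ± 0.06, adjusted p = 0.0954) and was lower by day 6 (-0.45 ± 0.06, adjusted p = 2.81e-08).

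All 6 subunits of the MCM helicase were lower than day 0 on each of the 3 later days, with changes of -0.64 to -0.27 at day 2, -0.67 to -0.18 at day 4 and -0.84 to -0.41 at day 6. With library-size scaling 1 of these 18 calls was lost, that of Mcm7 at day 4. Mcm2 was at 483, 453 and 461 CPM at day 0, at 366, 399 and 349 CPM at day 2, at 274, 292 and 311 CPM at day 4 and at 255, 262 and 266 CPM at day 6. Its days followed each other downwards with no overlap, and its fall at day 6 was 1.78-fold (-0.84 ± 0.05, adjusted p = 2.61e-18). The Mcm2 call at day 6 against day 4 (-0.16 ± 0.05, adjusted p = 0.00723) was lost without day 4 replicate 3 (-0.12, adjusted p = 0.0742). Mcm3 was at 408, 398 and 420 CPM at day 0, at 260, 280 and 248 CPM at day 2, at 258, 277 and 277 CPM at day 4 and at 228, 237 and 248 CPM at day 6. Most of its fall had thus taken place by day 2 (-0.64 ± 0.05, adjusted p = 4.28e-15), and days 2 and 4 overlapped.

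The 4 genes of nucleotide supply went different ways. Rrm2 was at 480, 458 and 479 CPM at day 0, at 234, 230 and 227 CPM at day 2, at 197, 190 and 192 CPM at day 4 and at 168, 163 and 159 CPM at day 6. No library of a day overlapped one of another day. Its fall at day 2 was 2.05-fold (-1.04 ± 0.04, adjusted p = 3.11e-23) and at day 6 it was 2.89-fold (-1.53 ± 0.04, adjusted p = 9.66e-29). Rrm1, the large subunit of the same enzyme, was at 175, 182 and 181 CPM at day 0 and at 201, 214 and 200 CPM at day 2. It was at 168, 166 and 173 CPM at day 4 and at 178, 175 and 175 CPM at day 6. Rrm1 was therefore highest at day 2, where it was higher than day 0 by 0.20 ± 0.04 (adjusted p = 0.000136), and day 6 overlapped day 0 (-0.03 ± 0.04, adjusted p = 0.602). Its day 4 libraries lay below those of day 0 without overlap, but the difference was not called (-0.09 ± 0.04, adjusted p = 0.0742). The ratio of Rrm2 to Rrm1 CPM within a library, in which transcript length is not taken into account, averaged 2.64 ± 0.114 at day 0, 1.12 ± 0.0456 at day 2, 1.14 ± 0.0315 at day 4 and 0.928 ± 0.0179 at day 6 (SD, n = 3 each).

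Tk1, thymidine kinase, a salvage enzyme, was the only replication gene higher than day 0 on all 3 later days. It was at 13.9, 15.0 and 14.4 CPM at day 0, at 23.6, 21.9 and 23.8 CPM at day 2, at 24.3, 22.7 and 21.3 CPM at day 4 and at 19.1, 20.6 and 21.3 CPM at day 6. Day 0 lay below every later library, and the rise was 1.6-fold at day 2 (0.68 ± 0.09, adjusted p = 2.88e-08) and 1.40-fold at day 6 (0.49 ± 0.10, adjusted p = 1.92e-05). Exons of Tk1 share 1.6% of their bases with Afmid on the other strand, which had 607 counts beside 2484 for Tk1. Tyms, thymidylate synthase, which makes the same nucleotide by another route, was at 37.9, 31.0 and 30.2 CPM at day 0, at 39.0, 39.1 and 40.6 CPM at day 2, at 35.9, 37.8 and 44.1 CPM at day 4 and at 25.4, 24.2 and 24.1 CPM at day 6. It was higher at day 2 by 0.25 ± 0.08 (adjusted p = 0.0047) and lower at day 6 by 0.43 ± 0.09 (adjusted p = 2.54e-05). The Tyms calls against day 0 at days 2 and 4 rested on single libraries. Without day 0 replicate 3 the day 2 call was lost (adjusted p = 0.055). The day 4 call of 0.23 ± 0.08 (adjusted p = 0.0119) was lost without day 0 replicate 2, day 0 replicate 3 or day 4 replicate 3.

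Of the 6 genes of DNA synthesis, Pola1, the catalytic subunit of the polymerase that starts new strands, fell most. It was at 115, 116 and 121 CPM at day 0, at 59.6, 65.9 and 63.3 CPM at day 2, at 57.5, 63.9 and 62.3 CPM at day 4 and at 49.8, 47.5 and 57.1 CPM at day 6. Day 0 stood clear of all later libraries, and days 2 and 4 overlapped. The falls were 1.87-fold at day 2 (-0.90 ± 0.06, adjusted p = 4.54e-17) and 2.29-fold at day 6 (-1.19 ± 0.06, adjusted p = 1.32e-20). Its partner Prim1, the primase, fell by 0.81 ± 0.06 on the log2 scale at day 6 (adjusted p = 4.29e-15), Pcna, the sliding clamp, by 0.82 ± 0.05 (adjusted p = 3.78e-18), and Lig1, the ligase that joins lagging-strand fragments, by 0.45 ± 0.04 (adjusted p = 1.11e-11). A processed pseudogene, Pcna-ps2, held 3757 counts over the 12 libraries, so reads of Pcna may be split with it. Rfc4, a subunit of the clamp loader, was not called at day 2 (-0.04 ± 0.06, adjusted p = 0.577) and was lower at day 6 (-0.48 ± 0.07, adjusted p = 4.39e-08). Its exons share 12.7% of their bases with Eif4a2 on the other strand, which had 64040 counts beside 4807 for Rfc4.

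Fen1, the flap endonuclease that trims lagging-strand fragments, did not follow them. It was at 73.7, 74.0 and 69.7 CPM at day 0, at 94.7, 88.5 and 87.8 CPM at day 2, at 93.5, 92.0 and 97.8 CPM at day 4 and at 72.0, 70.3 and 77.5 CPM at day 6. Days 2 and 4 lay above days 0 and 6, which overlapped. The differences from day 0 were 0.32 ± 0.05 at day 2 (adjusted p = 1.82e-06), 0.38 ± 0.05 at day 4 (adjusted p = 8.42e-08) and 0.01 ± 0.06 at day 6 (adjusted p = 0.828). The antisense gene Gm10143 covers 78.8% of its exon bases and had 23 counts over all libraries, beside 10046 for Fen1. Tmem258, also on the other strand, shares 5.37% of the Fen1 exon bases and had 6004 counts. As the strand setting is not given, whether its reads there were kept apart from those of Fen1 is not known.

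**Figure D2:**
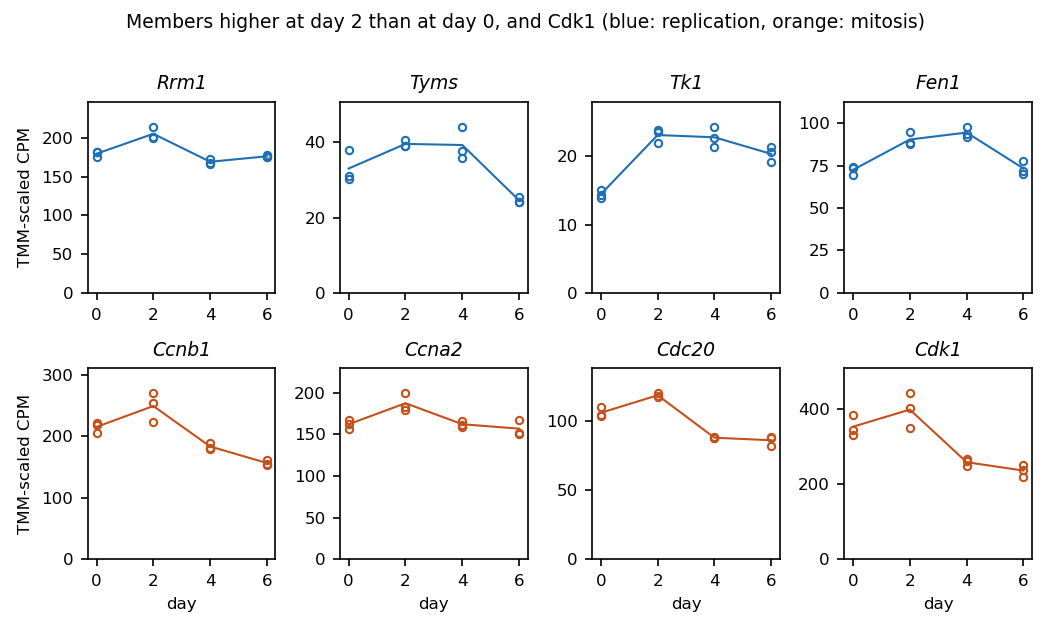
Level in each library, in TMM-scaled CPM, by day for the 7 genes that were higher at day 2 than at day 0, and for Cdk1. The 7 are Rrm1, Tyms, Tk1 and Fen1 of replication and Ccnb1, Ccna2 and Cdc20 of mitosis. Cdk1 was not called at day 2, and its libraries of days 0 and 2 overlapped. Points are libraries and the line joins the means of 3; of the 7, Tk1 alone lay above all day 0 libraries at day 6.

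Of the cyclin genes and Cdk1, Ccnb2 alone was lower at day 2 than at day 0. Ccnb2, a B-type cyclin, was at 234, 243 and 243 CPM at day 0, at 198, 201 and 210 CPM at day 2, at 141, 146 and 150 CPM at day 4 and at 138, 119 and 137 CPM at day 6. No 2 days overlapped. Its fall was 1.18-fold at day 2 (-0.24 ± 0.05, adjusted p = 2.14e-05) and 1.82-fold at day 6 (-0.86 ± 0.05, adjusted p = 8.69e-19). The further fall at day 6 against day 4 (-0.14 ± 0.05, adjusted p = 0.0195) was lost without day 4 replicate 2, day 4 replicate 3 or day 6 replicate 2. Ccnb1, the other B-type cyclin of the set, was at 219, 206 and 222 CPM at day 0, at 271, 254 and 224 CPM at day 2, at 189, 182 and 180 CPM at day 4 and at 153, 162 and 155 CPM at day 6. It was thus highest at day 2, by 0.21 ± 0.05 over day 0 (adjusted p = 0.000408), and lower than day 0 at day 6 by 0.46 ± 0.05 (adjusted p = 6.81e-10). The Ccnb1 fall at day 4 (-0.23 ± 0.05, adjusted p = 0.000178) was lost with library-size scaling (-0.10, adjusted p = 0.0647).

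Ccna2, the A-type cyclin that acts in S phase and in early mitosis, was at 167, 157 and 163 CPM at day 0, at 180, 183 and 200 CPM at day 2, at 162, 166 and 159 CPM at day 4 and at 151, 168 and 152 CPM at day 6. Day 2 alone stood apart from day 0, by 0.21 ± 0.05 (adjusted p = 0.000249). At days 4 and 6 the differences were 0.00 ± 0.05 (adjusted p = 0.957) and -0.05 ± 0.05 (adjusted p = 0.368). Exons of Ccna2 share 12.5% of their bases with Exosc9 on the other strand, which had 8553 counts beside 20345 for Ccna2. Cdk1, the kinase that both B-type cyclins activate, was at 383, 345 and 331 CPM at day 0, at 404, 443 and 349 CPM at day 2, at 261, 267 and 247 CPM at day 4 and at 238, 219 and 251 CPM at day 6. Days 0 and 2 overlapped, with a difference of 0.18 ± 0.08 (adjusted p = 0.0828), and both later days lay below them (day 6: -0.58 ± 0.09, adjusted p = 4.87e-05). The day 2 difference of Cdk1 was called with library-size scaling, without the filter, with DESeq2 (adjusted p = 0.0372), and without day 0 replicate 1 or day 2 replicate 3. Cdc20, which activates the anaphase-promoting complex, was at 103, 110 and 104 CPM at day 0, at 118, 120 and 117 CPM at day 2, at 88.4, 87.4 and 87.2 CPM at day 4 and at 87.4, 81.8 and 88.3 CPM at day 6. It was above day 0 at day 2 (0.16 ± 0.05, adjusted p = 0.00298) and below it at day 6 (-0.30 ± 0.05, adjusted p = 9.26e-07). Ube2c, the ubiquitin-conjugating enzyme of that complex, was lower at day 6 by 0.64 ± 0.06 (adjusted p = 3.15e-12).

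The 7 genes of mitotic kinases and the spindle checkpoint were all lower at day 6 than at day 0, by 0.84 to 0.12 on the log2 scale. Bub1, a checkpoint kinase, was at 101, 101 and 98.1 CPM at day 0, at 75.5, 73.7 and 78.1 CPM at day 2, at 68.1, 62.4 and 66.0 CPM at day 4 and at 57.2, 54.2 and 55.4 CPM at day 6. Its days did not overlap, and its fall at day 6 was 1.80-fold (-0.84 ± 0.05, adjusted p = 2.08e-17). Bub1b, which encodes the checkpoint protein BubR1, was at 749, 692 and 731 CPM at day 0, at 466, 513 and 435 CPM at day 2, at 543, 561 and 660 CPM at day 4 and at 436, 465 and 493 CPM at day 6. It went down, up and down again over the 3 steps, with a rise of 0.32 ± 0.07 at day 4 against day 2 (adjusted p = 0.0028). Ttk, the kinase known as Mps1, fell by 0.81 ± 0.06 at day 6 (adjusted p = 5.70e-15).

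Birc5, which encodes survivin, a partner of Aurora B, was at 178, 174 and 171 CPM at day 0, at 153, 139 and 151 CPM at day 2, at 180, 165 and 191 CPM at day 4 and at 142, 143 and 156 CPM at day 6. Days 0 and 4 overlapped and lay above days 2 and 6. It was higher at day 4 than at day 2 by 0.27 ± 0.05 (adjusted p = 1.76e-05) and lower at day 6 than at day 0 by 0.25 ± 0.05 (adjusted p = 3.23e-05). Its day 2 fall (-0.24 ± 0.05, adjusted p = 6.60e-05) was lost with library-size scaling. Aurkb, the kinase Aurora B itself, was at 88, 88 and 90.1 CPM at day 0, at 74.0, 69.1 and 74.6 CPM at day 2, at 56.3, 56.2 and 61.3 CPM at day 4 and at 79.5, 77.2 and 79.6 CPM at day 6. The lowest day was day 4, and day 6 was above it by 0.45 ± 0.05 (adjusted p = 9.85e-09). Its remaining difference at day 6 from day 0 (-0.17 ± 0.05, adjusted p = 0.00336) was lost with library-size scaling. Aurka, the spindle-pole kinase Aurora A, was lower at day 6 by 0.53 ± 0.06 (adjusted p = 1.76e-10). Plk1, Polo-like kinase, was at 103, 104 and 100 CPM at day 6, against 117, 104 and 115 CPM at day 0, and the libraries overlapped. Its difference at day 6 was -0.12 ± 0.05 (adjusted p = 0.0284). That call was lost with library-size scaling, without the filter, with DESeq2, and without replicate 1 or 3 of day 0 or replicate 1 or 3 of day 6.

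The 4 members of chromosome structure and the kinetochore, Cenpf, Cenpe, Mki67 and Top2a, had their lowest mean at day 4. Cenpf was at 370, 348 and 365 CPM at day 0, at 204, 201 and 195 CPM at day 2, at 149, 151 and 138 CPM at day 4 and at 161, 168 and 164 CPM at day 6. All days were apart, with falls of 2.46-fold at day 4 (-1.30 ± 0.05, adjusted p = 1.59e-25) and 2.20-fold at day 6 (-1.14 ± 0.04, adjusted p = 4.82e-24). Day 6 was above day 4 by 0.16 ± 0.05 (adjusted p = 0.00394). Cenpe, a kinetochore motor, was at 268, 264 and 278 CPM at day 0, at 179, 190 and 177 CPM at day 2, at 169, 171 and 174 CPM at day 4 and at 206, 212 and 199 CPM at day 6. Its day 6 libraries lay between those of day 2 and day 0, above day 4 by 0.26 ± 0.04 (adjusted p = 6.51e-06) and below day 0 by 0.39 ± 0.04 (adjusted p = 1.95e-10).

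Mki67, which encodes the proliferation marker Ki-67, was at 676, 632 and 641 CPM at day 0, at 410, 418 and 422 CPM at day 2, at 405, 421 and 399 CPM at day 4 and at 444, 460 and 419 CPM at day 6. The 3 later days lay far below day 0 and close to each other (day 6: -0.56 ± 0.04, adjusted p = 1.75e-14). Its small excess at day 6 over day 4 (0.11 ± 0.04, adjusted p = 0.0414) was lost with library-size and median-ratio scaling, without the filter, with DESeq2, and without any 1 of 6 libraries, namely replicates 1 and 2 of day 2, 1 and 3 of day 4, and 1 and 2 of day 6. Top2a, topoisomerase II alpha, which untangles chromosomes, was at 856, 798 and 839 CPM at day 0, at 689, 706 and 713 CPM at day 2, at 542, 538 and 546 CPM at day 4 and at 570, 574 and 586 CPM at day 6. No 2 days overlapped, and the fall was 1.44-fold at day 6 (-0.53 ± 0.04, adjusted p = 2.18e-14), but Top2a at day 6 was not called against day 4 (0.09 ± 0.04, adjusted p = 0.0823). The 4 spindle proteins were lower at day 6, from Nusap1, a microtubule-bundling protein (-0.81 ± 0.05, adjusted p = 5.10e-17), through the motor gene Kif11 (-0.51 ± 0.05, adjusted p = 3.76e-12) and Tpx2, an activator of Aurora A (-0.48 ± 0.05, adjusted p = 4.42e-12), to Kif20a, a motor of cytokinesis (-0.30 ± 0.04, adjusted p = 7.17e-08). Exons of Kif20a share 29.3% of their bases with Cdc23 on the other strand.

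**Figure D3:**
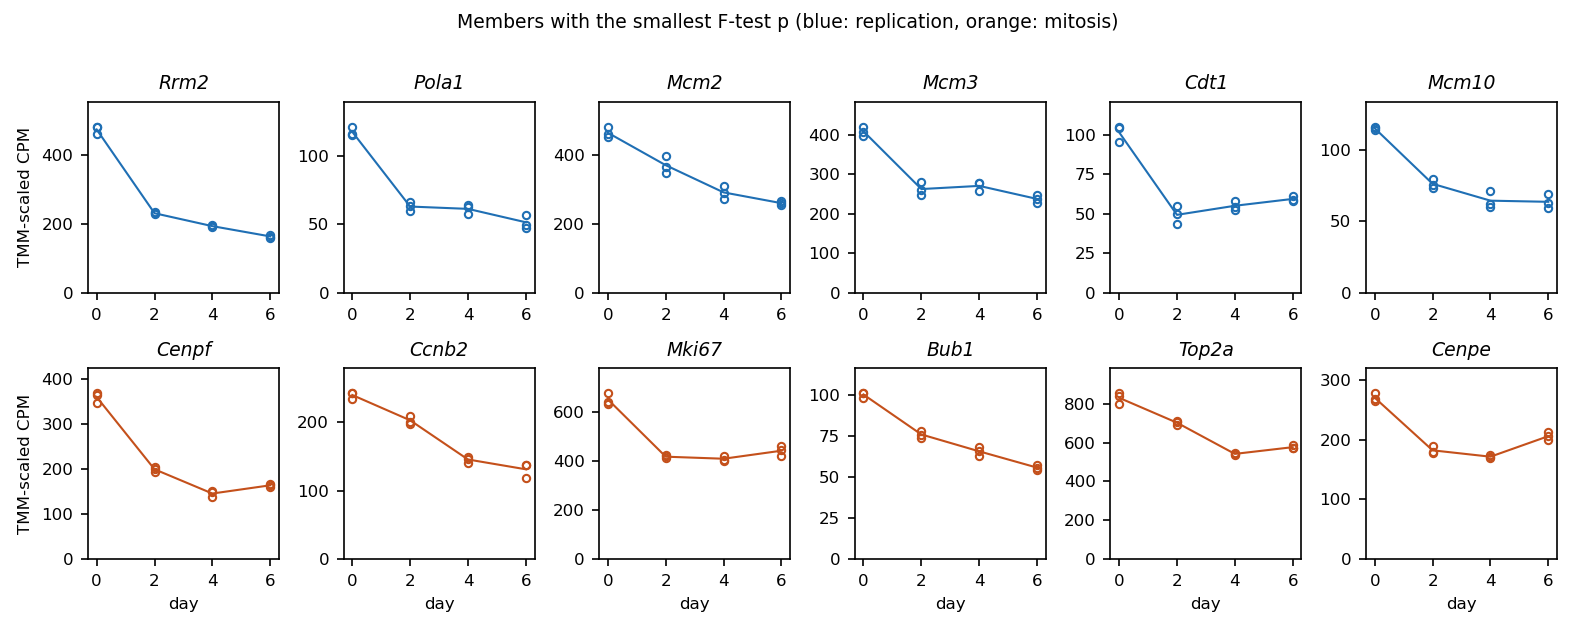
Level in each library, in TMM-scaled CPM, by day for the 6 replication and the 6 mitosis genes with the smallest F-test p over the 4 days. Points are libraries and the line joins the means of 3; in each of the 12 genes every library of days 2, 4 and 6 lay below all day 0 libraries.

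With TMM scaling, the largest fitted step down was mostly the first for replication genes, and was divided mainly between the first and second for mitosis genes. Of the 19 replication genes lower at day 6, 14 (73.7%) had their largest fitted decrease at day 2 against day 0, 2 (Mcm2 and Rfc4) at day 4 against day 2, and 3 (Pcna, Tyms and Cdc6) at day 6 against day 4. Of the 20 mitosis genes lower at day 6, 8 (40.0%) had it at the first step, 10 (50%) at the second and 2 (Plk1 and Birc5) at the third. The 10 were Ccnb1, Ccnb2, Cdk1, Cdc20, Aurka, Aurkb, Top2a, Kif11, Kif20a and Ube2c, and the 8 were Bub1, Bub1b, Ttk, Mki67, Cenpe, Cenpf, Tpx2 and Nusap1. Over the 6173 tested genes lower at day 6, the shares of the 3 steps were 57.9%, 25.6% and 16.4%. These steps were fitted with TMM scaling and were not recounted under the other settings. With library-size scaling the median shift over all tested genes was 0.132 at the first step, -0.004 at the second and -0.024 at the third. Cdc45, for example, 1 of the 14, then changed by -0.03 at the first step and by -0.14 at the third. The counts above can thus change with the scaling. This is a description of fitted steps and the difference between the groups was not tested.

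At the second step, day 4 against day 2, 16 mitosis genes were lower (76.2%) and 2 higher (9.52%), where 24.8% of tested genes were lower and 25.3% higher, and their median change was -0.29. Of the replication genes 8 were lower (36.4%) and 2 higher (9.09%), Cdt1 and Gins2, with a median of -0.07. The count of higher replication genes was 1 without day 2 replicate 1, without day 4 replicate 1 or without day 4 replicate 2. At the third step, day 6 against day 4, 11 replication genes (50%) and 7 mitosis genes (33.3%) were lower, where 19.3% of tested genes were. Higher at that step were Aurkb, Cenpf, Cenpe and Mki67 of the mitosis genes (19.0%), where 23.6% of tested genes were higher. No replication gene was, by edgeR at an adjusted or unadjusted p under 0.05 (0 in both) or by DESeq2 (0). The medians were -0.16 for replication and -0.04 for mitosis.

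**Figure D4:**
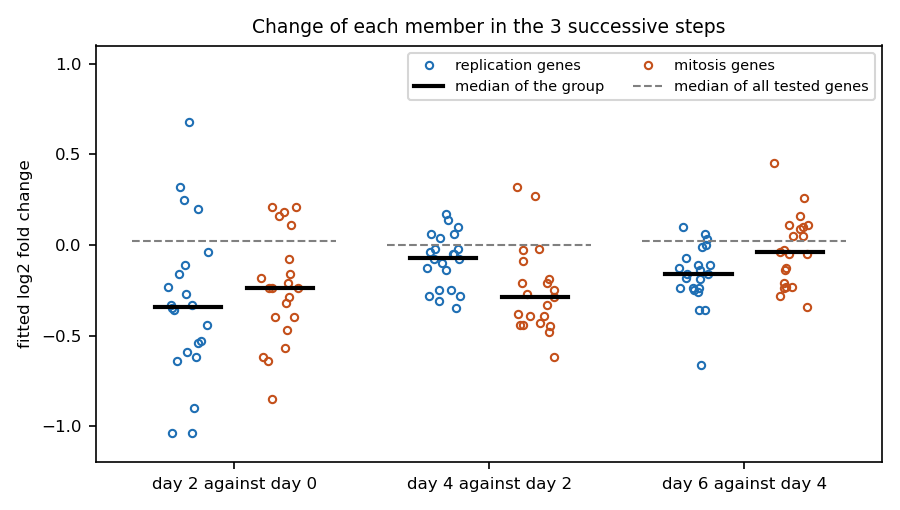
Fitted log2 fold change of each gene in 3 successive steps (day 2 against day 0, day 4 against day 2, day 6 against day 4), with replication and mitosis genes drawn apart and the group medians marked. The replication median was -0.34, -0.07 and -0.16, and the mitosis median -0.24, -0.29 and -0.04.

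At day 4 against day 0, 17 replication genes (77.3%) and 18 mitosis genes (85.7%) were lower, where 36.1% of tested genes were lower and 37.5% higher. The medians were -0.44 and -0.59. Higher at day 4 were Tk1, Fen1 and Tyms, all of replication. No mitosis gene was higher by edgeR at an adjusted or an unadjusted p under 0.05, or by DESeq2, but 3 (Birc5, Ccna2 and Plk1) were with library-size scaling, and Plk1 was without the filter. At day 6, 39.4% of tested genes were higher than at day 0, and Tk1 alone among the 43 was. The day with the highest mean level was day 0 for 18 replication genes (81.8%) and 15 mitosis genes (71.4%), beside 36.9% of tested genes. It was day 2 for 5 mitosis genes (23.8%) and 3 replication genes (13.6%), shares near the 18.1% of tested genes. The lowest day was day 6 for 15 replication genes (68.2%), whereas mitosis genes were divided between day 6 with 12 (57.1%) and day 4 with 9 (42.9%). Of tested genes 26.8% were lowest at day 6 and 17.3% at day 4. Highest and lowest days are orders of means alone. At day 6 against day 4, 4 mitosis genes were called higher, 7 lower and 10 in neither direction. For replication genes these counts were 0, 11 and 11. All 43 genes differed among the 4 days by the F-test, as did 89.2% of all tested genes.

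**Figure D5:**
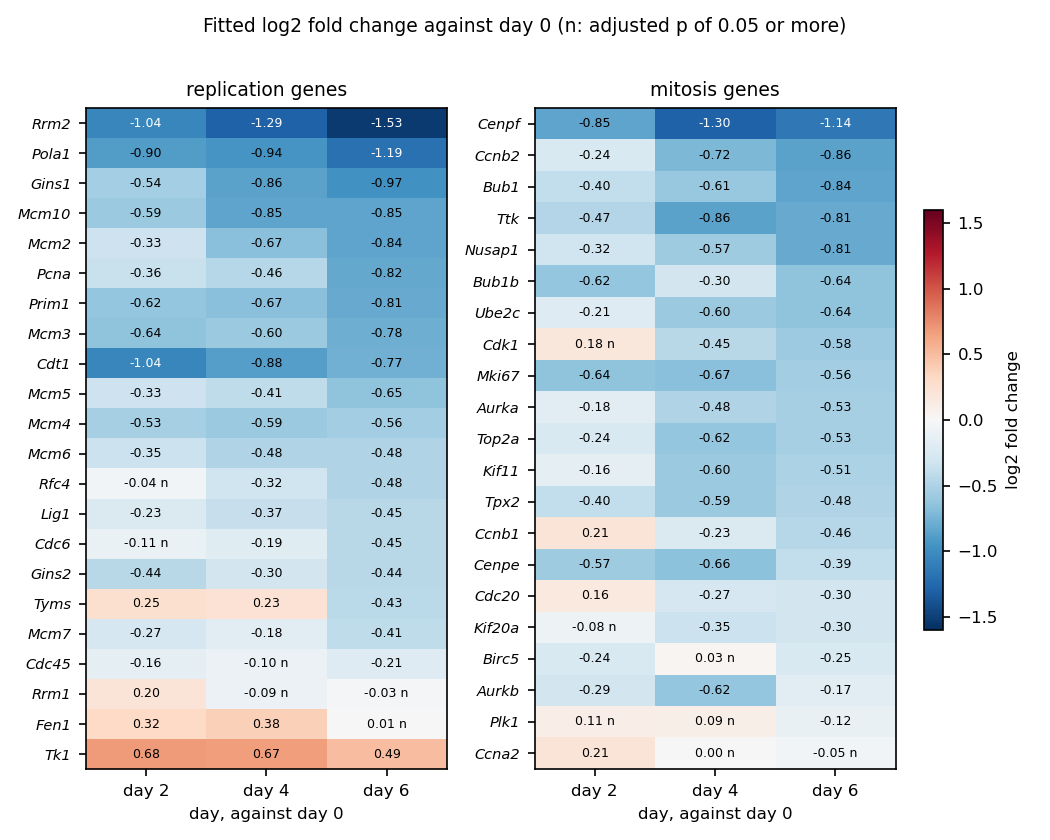
Fitted log2 fold change at days 2, 4 and 6 against day 0 for all 43 genes, in order of the day 6 value within each group, with n marking an adjusted p of 0.05 or more. The range at day 6 runs from -1.53 (Rrm2) to 0.49 (Tk1).

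The count of genes whose libraries did not overlap between days followed the calls. At day 4 against day 0, 18 lower and 2 higher replication genes and 18 lower mitosis genes did not overlap, beside 36.9% and 38.3% of tested genes lower and higher. At day 6 against day 0 these were 19 lower and 1 higher replication gene and 19 lower mitosis genes, beside 38.1% and 40.2%. At day 4 against day 2 they were 9 lower and 1 higher for replication and 17 lower and 2 higher for mitosis, beside 27.9% and 27.8%. At day 6 against day 4 they were 14 lower and 1 higher for replication and 7 lower and 6 higher for mitosis, beside 23.0% and 27.7%.

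Summed over their genes, the replication group took 0.405 to 0.406% of all counts at day 0, 0.330 to 0.339% at day 2, 0.311 to 0.313% at day 4 and 0.273 to 0.280% at day 6. The mitosis group took 0.504 to 0.522%, 0.451 to 0.460%, 0.392 to 0.399% and 0.375 to 0.383% on the same days. The mean log2 CPM of the replication genes was 7.07 ± 0.01, 6.75 ± 0.03, 6.67 ± 0.01 and 6.50 ± 0.04 at days 0, 2, 4 and 6 (SD, n = 3 each), and that of the mitosis genes 7.60 ± 0.02, 7.35 ± 0.02, 7.10 ± 0.01 and 7.07 ± 0.01. Replication minus mitosis was -0.52 ± 0.02 at day 0, -0.60 ± 0.02 at day 2, -0.44 ± 0.01 at day 4 and -0.57 ± 0.03 at day 6. The replication mean was thus lowest relative to the mitosis mean at day 2 and highest at day 4, a description without a test. This order of days rests on the use of the mean. With the median over genes, replication minus mitosis changed by -0.45, -0.09 and -0.30 at days 2, 4 and 6 against day 0, where the mean gave -0.08, 0.09 and -0.05, so day 0 and not day 4 was the highest.

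Expressed per kilobase of merged exons, Rrm2 (171 CPM per kilobase), Bub1b (169) and Ccnb2 (157) had the highest levels of the 43 genes at day 0. At day 6 the highest levels were those of Bub1b (109 CPM per kilobase), Ccnb2 (86.2) and Pcna (67.5), and Rrm2 was at 58.8. Lengths join the exons of all annotated isoforms, which can understate the level of a gene with long rare isoforms. The mean CPM over the 12 libraries had a median of 105 over the replication genes (20.2 to 348) and of 167 over the mitosis genes (44.4 to 663), beside 16.5 over all tested genes.

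Further genes of the same processes were followed in 4 lists. Of 46 other replication factors, 33 (71.7%) were lower and 5 (10.9%) higher at day 2 than at day 0, beside 33.2% and 34.9% of tested genes. At day 6, 38 (82.6%) were lower, beside 37.5%. The medians were -0.35 and -0.45. With library-size scaling 29 were lower and 9 higher at day 2, with a median of -0.22, and 35 were lower and 3 higher at day 6, with a median of -0.34. Rpa1, the large subunit of the single-strand binding protein, averaged 301 ± 5.98, 349 ± 3.91, 187 ± 4.23 and 146 ± 4.70 CPM at days 0, 2, 4 and 6 (SD, n = 3 each), so it was highest at day 2. Dna2, a nuclease and helicase, averaged 137 ± 3.60 CPM at day 0 and 46.9 ± 2.93 at day 6, a fall of 2.91-fold (adjusted p = 1.86e-25). Rfc1, the large subunit of the clamp loader, fell 2.00-fold at day 6 (adjusted p = 6.39e-22) and Pold2, a subunit of polymerase delta, 2.34-fold (adjusted p = 6.14e-20).

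Of 56 other mitosis genes, 34 (60.7%) were lower and 4 (7.14%) higher at day 2 than at day 0, beside 33.2% and 34.9% of tested genes. At day 6, 46 (82.1%) were lower and 1 (1.79%) higher, beside 37.5% and 39.4%. The medians were -0.24 and -0.60. With library-size scaling the day 2 counts were 27 lower and 12 higher, with a median of -0.10. At day 4 against day 2, 44 (78.6%) were lower, beside 24.8%. Espl1, separase, the protease that opens cohesin, averaged 287 ± 0.978, 112 ± 4.21, 78.6 ± 0.926 and 84.2 ± 2.87 CPM at days 0, 2, 4 and 6 (SD, n = 3 each). Pttg1, securin, the inhibitor of separase, averaged 129 ± 4.67, 54.0 ± 3.24, 41.7 ± 1.1 and 36.2 ± 1.65 CPM. These 2 partners had falls of 2.56-fold and 2.38-fold by day 2, larger than that of any of the 21 mitosis members. Ckap2, a spindle protein, fell 2.54-fold at day 6 (adjusted p = 3.86e-24), and Anln, anillin, a protein of the cleavage furrow, 1.96-fold (adjusted p = 1.21e-21).

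Among 23 transcriptional regulators of these genes, 10 (43.5%) were lower and 7 (30.4%) higher at day 2, beside 33.2% and 34.9% of tested genes, so the share of higher genes was near the background. At day 6, 12 (52.2%) were lower and 6 (26.1%) higher, beside 37.5% and 39.4%. The median at day 2 was -0.12, and 0.01 with library-size scaling. Mybl2, which encodes B-Myb, the partner of MuvB at mitosis promoters, averaged 644 ± 13.3, 233 ± 5.96, 203 ± 6.70 and 272 ± 5.33 CPM at days 0, 2, 4 and 6 (SD, n = 3 each). It fell 2.77-fold at day 2 (adjusted p = 6.77e-28), and day 6 was above day 4 by 0.42 ± 0.04 (adjusted p = 3.21e-10). Nfyb, a subunit of NF-Y, fell 2.54-fold at day 6 (adjusted p = 1.53e-24), and Tfdp1, the dimer partner of E2F factors, 1.86-fold (adjusted p = 3.72e-20). The NF-Y subunits did not move together. Nfya went up, from 101 ± 2.63 CPM at day 0 to 160 ± 2.31 CPM at day 6. Nfyc averaged 33.7 ± 0.683 CPM at day 0 and 29.8 ± 1.48 CPM at day 6. E2f6, a repressor of the E2F family, was higher, at 54.8 ± 3.41 CPM at day 6 against 22.9 ± 2.01 CPM at day 0 (2.40-fold, adjusted p = 1.63e-18). The E2F genes did not move together either. Mean CPM at days 0 and 6 was 39.9 and 20.7 for E2f1, 12.6 and 4.71 for E2f2, and 154 and 103 for E2f4. For E2f7 it was 61.8 and 34.9, and for E2f8 48.2 and 27.2. Means were higher at day 6 for E2f3 (16.8 and 25.5) and E2f5 (47.9 and 53.6). No link between these regulators and the promoter matches was tested.

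The 23 genes of the anaphase-promoting complex and of licensing control were called in both directions, as were all tested genes. At day 2, 5 (21.7%) were lower and 9 (39.1%) higher than at day 0, beside 33.2% and 34.9% of tested genes, with a median of 0.10, and with library-size scaling 5 were lower and 15 higher. At day 6, 8 (34.8%) were lower and 7 (30.4%) higher than at day 0, beside 37.5% and 39.4% of tested genes, with a median of 0.05, and with library-size scaling 6 were lower and 13 higher. Ube2s, an enzyme that extends ubiquitin chains for the complex, averaged 143 ± 12 CPM at day 6 against 324 ± 11.9 CPM at day 0 (2.27-fold lower, adjusted p = 6.06e-23). Anapc15 fell 2.02-fold (adjusted p = 5.55e-21) and Fbxo5, the inhibitor Emi1, 1.72-fold (adjusted p = 2.94e-13). Anapc2, the cullin subunit, rose 1.62-fold (adjusted p = 4.64e-16). The share of higher genes at day 2 and that of lower genes at day 6 were near the background, so calls both ways do not set this list apart.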

How the data were processed

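The authors deposited raw counts per gene, whole numbers not normalized, for 12 libraries. Per the labels' protocols, total RNA came from a MiniBEST extraction and a SMARTER mRNA-Seq kit was used for the libraries. The mm10 genome and the tools HISAT2 2.1.0, featureCounts 2.0.1, FastQC 0.11.7 and DESeq2 are named, without role or order, per the submitters' processing notes. The annotation, the strand setting and the handling of reads with several positions are not given in the sources used here.

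Tests were run with edgeR 4.0.16 (R 4.3.3). filterByExpr by day kept 16468 of 55335 genes, libraries were scaled by TMM, and all 12 libraries entered 1 robust quasi-likelihood fit with the day as its sole term. The fit gave a common coefficient of variation of 0.0415 and 29.9 median prior degrees of freedom. Tests were two-sided, P-values were adjusted by Benjamini-Hochberg over all tested genes in each comparison, and the threshold was 0.05. The SE of a fold change was recovered from its test statistic. Log2 CPM for group means used a prior count of 2. Same-day libraries differed by a chi-square per degree of freedom of 1.51 to 3.80 over genes with at least 20 counts (1 is counting error alone), so no library was a copy of another. The procedure was tested on simulated data.

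Of the gene IDs, 55154 were found in GENCODE release M21, and all 43 members carried the same version there. Exon lengths and overlaps come from that release and promoter windows from RefSeq. The members and the further lists were chosen with earlier results of these data known, so no p-value was computed for a list. Values in every library are given for the 6 genes of each group with the smallest F-test p and for genes called against most of their group, and Cdk1 and Plk1 were added after their values were seen. In each further list the first 4 genes by F-test p were named. Nfya and Nfyc were added beside Nfyb, and the other E2F genes beside E2f6. Alternatives were library-size and median-ratio scaling, no filter, DESeq2 1.42.0, a replicate block, the median in place of the mean of a group, and leaving out each library. Plots used matplotlib 3.10.9 in Python 3.11.15.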

Additional observations from a re-analysis of the deposited data

How the results depend on the processing

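No call of a single gene was reversed. Over the 43 genes, 5 comparisons and 17 alternative settings (3655 values), 54 values lost the call, 40 gained one, 0 were called in both directions, and 21 changed sign with no call in either fit. With scaling by library size the median of all tested genes was higher by 0.132, 0.128 and 0.104 at days 2, 4 and 6 against day 0. The count of higher mitosis genes was then 5 in place of 3 at day 2 and 3 in place of 0 at day 4, and that of higher replication genes at day 4 against day 2 was 1 in place of 2, as it was with DESeq2 (1). Without the filter on low counts the higher mitosis genes numbered 5 at day 2 and 1 at day 4. The cause was not tested. Leaving out each library in turn, the higher mitosis genes at day 2 numbered 3 to 5 and the higher replication genes at day 4 against day 2 numbered 1 to 2. Replication minus mitosis level, with the median over genes in place of the mean, changed by -0.45 at day 2, -0.09 at day 4 and -0.30 at day 6 against day 0, where the mean gave -0.08, 0.09 and -0.05. The sign at day 4 was therefore reversed, and with each library left out the mean gave 0.08 to 0.10.

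A replicate block, the replicate number as a term, left 22 of 22 counts of members within 1.5 times, and added 1 call, Plk1 higher at day 2 (adjusted p = 0.0448), which made 4 higher mitosis genes. Deviations of same-numbered libraries from their day means did not go together (r of -0.04 to 0.03 over 18 pairs). No shared effect of the replicate number was thus seen. These values cannot tell whether same-numbered libraries had a common origin, which the labels do not give. With 3 libraries a day of 6.95 to 13.3 times 1e6 counts, a p that missed the threshold does not show that levels were equal. Reads shared with overlapping genes on the other strand or with pseudogenes could not be separated.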
